A study of Mus musculus with 21 samples.

Results

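The Ikaros family was followed through cultured mouse natural killer (NK) cells from which Ikzf1, Ikzf3 or both had been deleted. The members were the genes Ikzf1 (Ikaros), Ikzf2 (Helios), Ikzf3 (Aiolos) and Ikzf4 (Eos), taken by symbol: 4 of the 11736 genes in the table. All 4 passed the filter on low values, as did 10032 genes in all. NK cells were sorted from the spleen and kept in interleukin 15 (IL-15) at 50 ng/ml, a cytokine that NK cells need to survive. The groups were Cre only (libraries S16 to S19, n = 4), Ikzf1 KO (knockout; S12 to S15, n = 4), Ikzf3 KO (S1 to S4, n = 4) and the knockout of both genes (DKO; S5 to S7, n = 3). The deletions were conditional and made in NK cells, and Cre only mice served as controls. The promoter that drives Cre, the exons that were deleted and the age of the mice are not given in the sources used here. Another 6 samples, sorted without culture, were not analysed here.

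The Ikaros family regulates transcription in lymphocytes through zinc fingers. Fingers near the amino end bind DNA at a shared core motif, and fingers at the carboxyl end pair family members with each other. The proteins recruit chromatin remodelling and corepressor complexes. Ikaros is needed for lymphocyte development, Aiolos is prominent in mature lymphocytes, and Helios and Eos are best known from regulatory T cells, where Eos works with Foxp3. The question addressed here was how much transcript of a deleted gene remained and whether transcripts of the other members differed.

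Because the members are related, a read could in principle fit several of them. The coding stretch below spans the second and the third DNA-binding zinc finger, among the most conserved parts of these proteins, and is shown to let the members be compared base by base. Each runs 5′ to 3′ on the coding strand over 147 bases of a single exon, and capitals mark bases that differ from Ikzf1. The sequences were read from mouse build GRCm38 (mm10) with GENCODE annotation, at chr11:11754024-11754170 (+, exon 6 of 9) for Ikzf1, chr1:69570497-69570643 (-, exon 5 of 8) for Ikzf2, chr11:98488856-98489002 (-, exon 5 of 8) for Ikzf3 and chr10:128640145-128640291 (-, exon 5 of 9) for Ikzf4.
Ikzf1: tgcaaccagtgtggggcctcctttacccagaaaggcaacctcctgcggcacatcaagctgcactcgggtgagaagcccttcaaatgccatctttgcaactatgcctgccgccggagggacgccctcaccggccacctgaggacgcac
Ikzf2: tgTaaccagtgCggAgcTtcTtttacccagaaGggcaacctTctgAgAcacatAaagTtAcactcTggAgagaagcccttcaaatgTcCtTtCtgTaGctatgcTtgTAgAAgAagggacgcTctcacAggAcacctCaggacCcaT
Ikzf3: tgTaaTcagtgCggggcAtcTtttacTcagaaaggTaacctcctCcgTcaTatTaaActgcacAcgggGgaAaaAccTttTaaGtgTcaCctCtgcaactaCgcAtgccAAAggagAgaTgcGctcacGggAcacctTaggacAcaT
Ikzf4: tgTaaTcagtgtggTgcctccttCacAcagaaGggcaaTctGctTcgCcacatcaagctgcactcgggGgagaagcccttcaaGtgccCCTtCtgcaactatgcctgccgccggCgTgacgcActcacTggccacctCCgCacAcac
Of these 147 bases, Ikzf4 shared 83.7% with Ikzf1, Ikzf2 shared 78.2% and Ikzf3 shared 76.2%. The differences are scattered through the stretch. Across the full transcripts, the longest run shared by Ikzf1 and Ikzf3 was 26 bases and that shared by Ikzf2 and Ikzf4 was 32 bases, against reads of 75 bases. None of the 5919 windows of 75 bases in Ikzf1 transcripts and none of the 8678 in Ikzf3 transcripts occurred in transcripts of another gene. For Ikzf2 it was 72 of 11969 windows (0.602%) and for Ikzf4 5 of 6354 (0.0787%).

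The 4 genes lie apart in the genome. Ikzf1 (ENSMUSG00000018654) is at chr11:11685003-11772926 on the plus strand and Ikzf3 (ENSMUSG00000018168) at chr11:98464902-98546031 on the minus strand. Ikzf2 (ENSMUSG00000025997) is at chr1:69531214-69687245 and Ikzf4 (ENSMUSG00000002578) at chr10:128630843-128645991, both on the minus strand. Ikzf2 shares 144 exon bases with the antisense gene Gm29114, and Ikzf4 shares 37 with Gm26876. The library kit keeps the strand, but whether counting used it is not given in the sources used here.

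Values are RPKM, reads scaled to gene length and to library size, so levels can be compared between members. Depth recovered from the table ran from 8.61 to 21.25 megareads per library. Between 1390 and 6557 reads lay behind each Ikzf1 value, 1551 to 9698 behind Ikzf3, 126 to 6139 behind Ikzf2 and 6 to 777 behind Ikzf4. NK identity genes were checked as a list, 16 of 17 being in the table. Their summed level was 10330 to 13868 RPKM in Cre only, 11465 to 12453 RPKM in Ikzf1 KO and 2856 to 5542 RPKM in DKO. In Ikzf3 KO the libraries split, with 11166 RPKM in S1 and 12925 RPKM in S2 but 3672 RPKM in S3 and 4431 RPKM in S4. S3 and S4 thus stood apart from S1 and S2 and near DKO on this measure, and results of Ikzf3 KO are given with and without them. Much of the sum was a single gene, Gzmb (granzyme B), so it does not stand for the whole list. Gzmb means were 9523 RPKM in Cre only, 9987 in Ikzf1 KO, 5831 (1795 to 10586) in Ikzf3 KO and 2440 in DKO. Ncr1, an activating NK receptor, did not follow the sums. Its means were 147 RPKM in Cre only, 112 in Ikzf1 KO, 146 in Ikzf3 KO and 201 in DKO. Klrd1 (304 RPKM in Cre only, 323 in DKO), Klrb1c (197 and 190) and Eomes (53.5 and 71.8) did not follow them either. Against Cre only, 6 of the 16 were called lower in DKO and 0 higher. Without S3 and S4, 6 were called lower and 3 higher. Differences are log2 fold changes of log2(RPKM + 0.5) ± SE from limma, with p-values adjusted by Benjamini-Hochberg over the 10032 genes, and a gene was called at an adjusted p below 0.05. Comparisons against Cre only share the same 4 control libraries. Whether the libraries of different groups overlapped is given as a description, without its share over all genes, and is not a test. In these bulk samples fewer cells of a type and less RNA per cell cannot be told apart.

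In Cre only cells, Ikaros and Aiolos transcripts made up nearly the whole family. Mean RPKM was 61.9 ± 5.22 (SD, n = 4) for Ikzf1, above 92.5% of the genes in the table, and 41.8 ± 3.68 for Ikzf3, above 88.5%. Ikzf2 averaged 1.91 ± 1.33 and Ikzf4 1.71 ± 0.219, above 29.2% and 27.4% of the genes. The order was therefore Ikzf1, Ikzf3 and then Ikzf2 and Ikzf4, whose libraries overlapped.

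**Figure D1:**
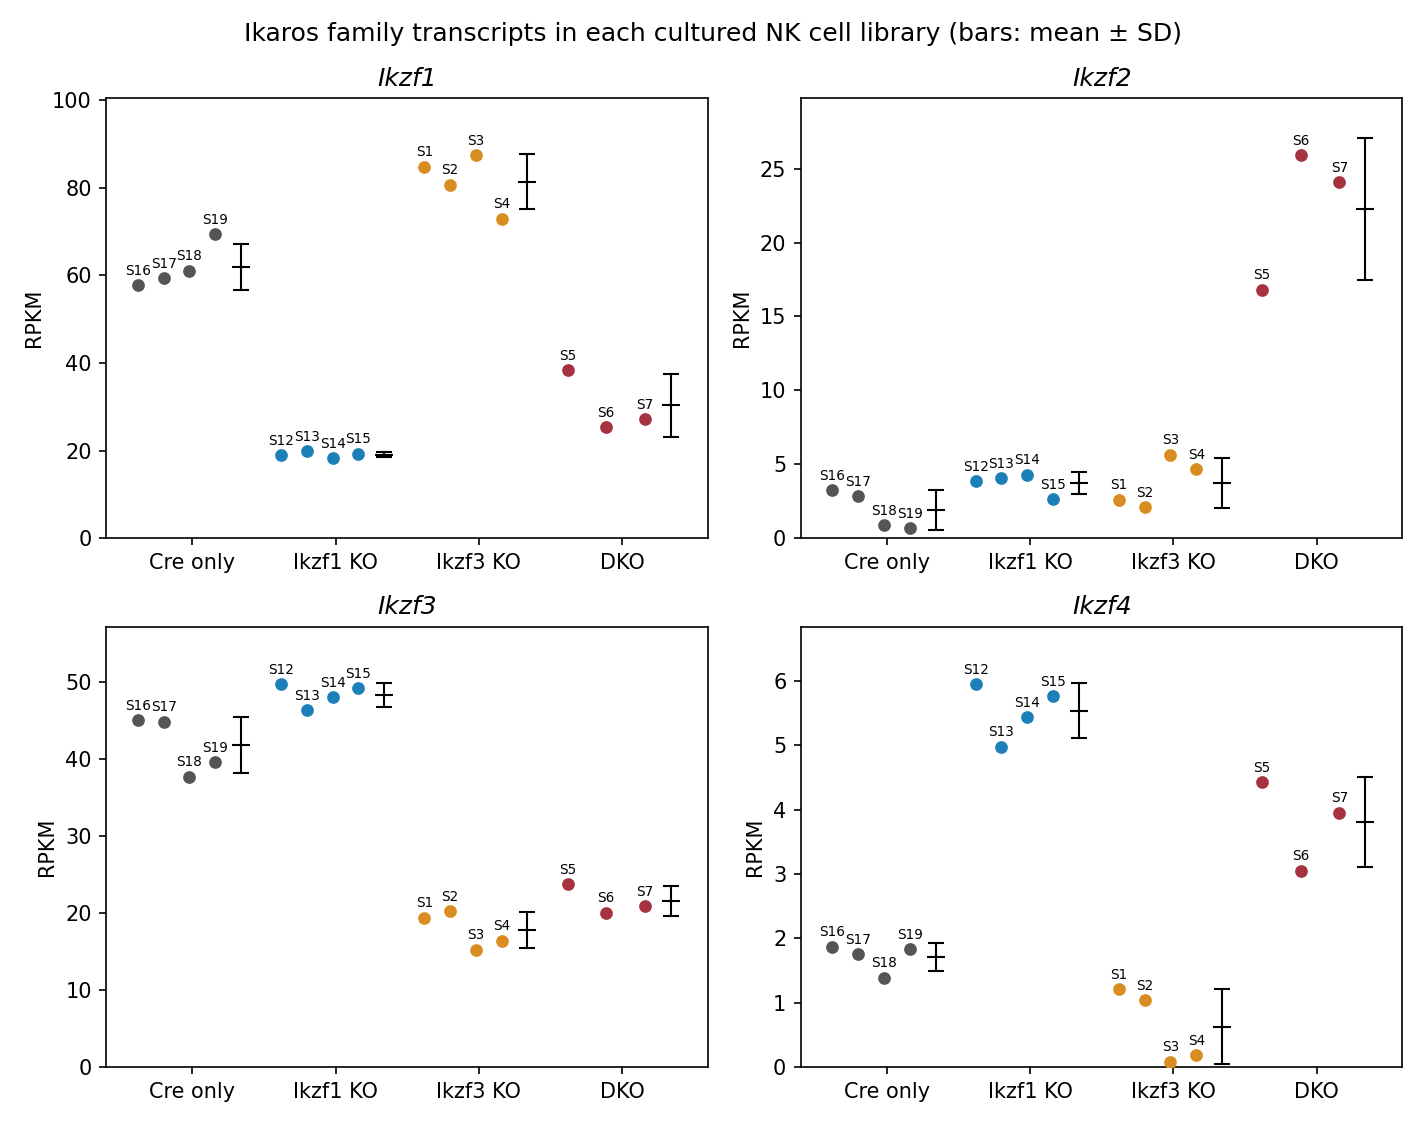
RPKM (vertical axes, linear, each from 0) of the 4 family members in every library, by genotype (horizontal axes); points are libraries and bars are mean ± SD. Ikzf1 stays near 20 RPKM in Ikzf1 KO cells, Ikzf2 is high in the 3 DKO libraries alone, and Ikzf4 is highest in Ikzf1 KO.

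Counted by comparison, 1 of the 4 members rose and 1 fell in Ikzf1 KO against Cre only, beside 3.54% and 2.78% of all genes tested. In Ikzf3 KO against Cre only 0 rose and 2 fell, beside 6.3% and 7.88%, and in DKO against Cre only 2 rose and 2 fell, beside 8.06% and 10.6%. Against Ikzf1 KO, DKO was higher in 2 members and lower in 1, beside 3.76% and 3.72%. Against Ikzf3 KO it was higher in 2 and lower in 1, beside 10.2% and 9.85%. Ikzf1 KO was higher than Ikzf3 KO in 2 members and lower in 1, beside 9.01% and 8.68%. These counts include the deleted genes, so they do not measure a response of the rest of the family.

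Deletion of Ikzf1 left a residue of Ikaros transcript. In Cre only cells Ikzf1 was at 57.7, 59.3, 61.1 and 69.4 RPKM. In Ikzf1 KO cells it was at 19, 19.9, 18.3 and 19.3 RPKM. The groups did not overlap, and the knockout libraries lay close together. The mean of 19.1 ± 0.662 RPKM was 30.9% of the Cre only mean, still above 76.5% of the genes, and the fall was -1.67 ± 0.13 (limma adjusted p = 3.26e-06). Values count reads over the whole gene, so whether the remaining transcript lacks the deleted exons was not tested.

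Ikaros transcript fell less in DKO cells. Its values there were 38.4, 25.3 and 27.2 RPKM in S5, S6 and S7, with S5 the highest. The mean of 30.3 ± 7.12 RPKM (n = 3) was 49.0% of the Cre only mean, a fall of -1.04 ± 0.14 (limma adjusted p = 0.000116). All 3 DKO libraries were above all 4 Ikzf1 KO libraries, and the difference between these groups was 0.63 ± 0.14 (limma adjusted p = 0.0119). Leaving out single libraries moved it between 0.45 and 0.74, and it was called each time.

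With Aiolos deleted and Ikzf1 intact, Ikaros transcript was at 84.8, 80.7, 87.4 and 72.9 RPKM. Each of these lay above every Cre only library. The mean was 81.4 ± 6.34 RPKM, 132% of Cre only, but the difference of 0.39 ± 0.13 did not pass the test (limma adjusted p = 0.0531). It passed when S5 was left out (adjusted p = 0.0172) and when S6 was left out (0.0477), both DKO libraries that enter only through the shared estimate of spread. Without S3 and S4 it was 0.42 (adjusted p = 0.0838). From high to low, the order for Ikzf1 was Ikzf3 KO, Cre only, DKO and Ikzf1 KO, with no overlap between neighbours.

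Aiolos transcript was reduced, not abolished, by deletion of Ikzf3. It stood at 45.0, 44.8, 37.7 and 39.6 RPKM in Cre only and at 19.4, 20.2, 15.2 and 16.4 RPKM in Ikzf3 KO. The groups were separate. The knockout mean of 17.8 ± 2.37 RPKM was 42.6% of the Cre only mean, a fall of -1.21 ± 0.11 (limma adjusted p = 3.94e-05), and of -1.06 without S3 and S4 (adjusted p = 0.000216). DKO cells had 23.7, 20.0 and 20.9 RPKM, a mean of 21.5 ± 1.96 RPKM or 51.5% of Cre only (-0.94 ± 0.12, limma adjusted p = 0.000102). These overlapped the Ikzf3 KO libraries, and the difference of 0.27 ± 0.12 between both groups did not pass the test (limma adjusted p = 0.127).

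Aiolos in Ikzf1 KO cells was measured at 49.7, 46.3, 48.0 and 49.2 RPKM. Every library was above every Cre only library, though the highest Cre only value, 45.0, was close. The difference of 0.21 ± 0.11 did not pass the test (limma adjusted p = 0.335). Ikzf1 and Ikzf3 thus each stood at a higher mean where the other gene was deleted, and neither difference was called.

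Helios transcript, low in all other groups, rose in DKO cells. Ikzf2 was at 3.26, 2.84, 0.882 and 0.664 RPKM in Cre only, and at 16.8, 25.9 and 24.1 RPKM in DKO. The mean of 22.3 ± 4.81 RPKM was above 79.7% of the genes and its libraries overlapped those of Ikzf3 in the same cells. The rise over Cre only was 3.4 ± 0.4 (limma adjusted p = 4.35e-05), over Ikzf1 KO 2.43 ± 0.4 (adjusted p = 0.00153) and over Ikzf3 KO 2.49 ± 0.4 (adjusted p = 0.000609). Under all alternatives tried the rise over Cre only lay between 2.66 and 4.14 and was called.

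Neither single deletion gave a called difference in Helios. Ikzf1 KO libraries held 3.87, 4.04, 4.30 and 2.63 RPKM and Ikzf3 KO libraries 2.60, 2.09, 5.64 and 4.65 RPKM. Their means of 3.71 ± 0.745 and 3.75 ± 1.68 RPKM were near each other, and both groups overlapped Cre only. The differences from Cre only were 0.97 ± 0.37 (limma adjusted p = 0.15) and 0.91 ± 0.37 (adjusted p = 0.104). The Cre only libraries themselves split, with a mean of 3.05 RPKM in S16 and S17 and 0.773 RPKM in S18 and S19, and their SD on the log2 scale, 0.86, was above that of 98.6% of genes. Without S16 and S17 the differences were 1.71 (adjusted p = 0.0115) and 1.65 (adjusted p = 0.0151), both called, and without S2 alone Ikzf3 KO was called as well (adjusted p = 0.0495). Without S3 and S4 the difference in Ikzf3 KO was 0.42 (adjusted p = 0.535). The call for Helios after a single deletion therefore rests on the libraries kept. Summed markers of group 1 innate lymphoid cells (ILC1), relatives of NK cells, split the Cre only libraries in the same way, at 413 and 377 RPKM in S16 and S17 and 175 and 145 RPKM in S18 and S19. These sums were 526 to 711 RPKM in DKO, 454 to 529 RPKM in Ikzf1 KO and 56.4 to 151 RPKM in Ikzf3 KO. In DKO and Ikzf1 KO much of them was Tmem176a (means of 110 and 106 RPKM) and Tmem176b (238 and 250 RPKM). Cd69 of the same list was called lower in these groups than in Cre only, so the sums do not stand for the whole list. The part of these sums in the Helios values was not tested.

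The sum of the single differences in Helios was 1.88 on the log2 scale, against 3.4 in DKO. The departure from additivity was 1.52 ± 0.55 and did not pass (limma adjusted p = 0.122). It passed without S3 and S4 (2.01, adjusted p = 0.0374), without S18 and S19 (2.26, adjusted p = 0.00911) and with library weights (2.29, adjusted p = 0.00842). Without S16 and S17 it was 0.78 (adjusted p = 0.396), so its size depends on the control libraries kept. For Ikzf1 the departure was 0.23 ± 0.19, for Ikzf3 0.06 ± 0.17 and for Ikzf4 0.63 ± 0.43. By limma 0 of the 4 members were called for this departure and 1 had an unadjusted p below 0.05, while 6.55% of all genes were called; no other tool was run.

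Several markers of T cells rose with Helios in DKO, but did not follow it in every group. Cd3e, a chain of the T cell receptor complex, was at 24.8, 42.4 and 44.8 RPKM in DKO and at 3.1, 2.5, 0.237 and 0.24 RPKM in Cre only. Both S5 in DKO, the lowest for Cd3e, and S18 and S19 in Cre only were also the lowest for Ikzf2 in their group. In Ikzf1 KO both genes had the same order, with Cd3e at 1.64, 2.73, 2.87 and 0.403 RPKM in S12, S13, S14 and S15. S15 was the lowest for both genes there. In Ikzf3 KO the order was reversed: S3 and S4, the highest for Ikzf2, had 0.935 and 1.33 RPKM of Cd3e, and S1 and S2 had 1.67 and 1.62 RPKM. Tcf7, a transcription factor of T cells and early NK cells, was at 190 RPKM in S5, the DKO library lowest for Ikzf2, and at 115 RPKM in S6 and S7. The summed level of the 16 T cell markers in the table (of 18 listed) was 1054 to 1861 RPKM in DKO, 539 to 791 in Cre only, 526 to 621 in Ikzf1 KO and 631 to 838 in Ikzf3 KO. Of 13 tested, 7 rose in DKO against Cre only and 0 fell, with a median of 1.22 beside 0.00 over all genes. The calls are 53.8% of those tested, beside 18.7% of all genes. Under the alternatives 7 to 9 were called in either direction, and with library weights the 9 were 7 rises and 2 falls. Among the 7 rises were Cd3e at 4.55 ± 0.57, Cd3d at 3.54 ± 0.62 and Trac, the alpha chain constant region, at 2.82 ± 0.37. Other markers of the list had lower means in DKO than in Cre only, though none was called lower. Bcl11b averaged 1.3 RPKM in DKO and 2.05 RPKM in Cre only, and Cd247 averaged 15.2 and 21.5 RPKM. The coreceptor Cd4 was low but highest in DKO, with a mean of 0.94 RPKM (0.256 to 1.3) beside means of 0.0257 RPKM in Ikzf3 KO, 0.107 RPKM in Ikzf1 KO and 0.204 RPKM in Cre only. Cd8a averaged 0.0438 RPKM in DKO and 0.0191 RPKM in Ikzf3 KO, below the 0.208 RPKM of Ikzf1 KO and the 0.293 RPKM of Cre only. Foxp3, Cd5 and Cd8b1 were not in the table and could not be checked. The part of T cell transcripts, or of the lower NK identity sum, in the Helios result was not tested.

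**Figure D2:**
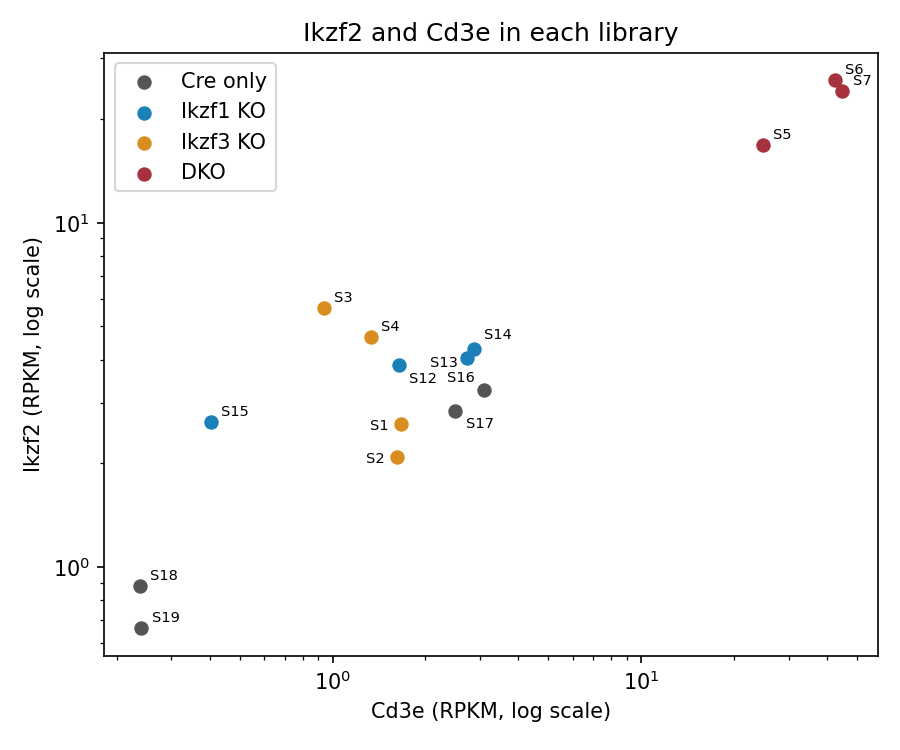
Ikzf2 (vertical) against Cd3e (horizontal), both in RPKM on log axes, 1 point per library coloured by genotype. The 3 DKO libraries lie above 16 RPKM of Ikzf2 and 24 RPKM of Cd3e, and the Cre only libraries S18 and S19 lie lowest.

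Eos transcript went in opposite directions in the single knockouts. In Cre only cells Ikzf4 was at 1.87, 1.75, 1.39 and 1.83 RPKM. In Ikzf1 KO cells it was at 5.95, 4.98, 5.44 and 5.76 RPKM, all above every library of the other groups. The mean of 5.54 ± 0.423 RPKM was 324% of Cre only, a rise of 1.45 ± 0.29 (limma adjusted p = 0.00785). The call was lost with a pseudocount of 0.1 (1.65, adjusted p = 0.0627) and without S18 and S19 (1.38, adjusted p = 0.052).

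In Ikzf3 KO cells Eos was at 1.21, 1.04, 0.0795 and 0.179 RPKM. All 4 were below Cre only, but S3 and S4 held 6 and 13 reads where S1 and S2 held 86 and 55. The mean of 0.628 ± 0.581 RPKM was 36.8% of Cre only and the fall -1.12 ± 0.29 (limma adjusted p = 0.0211). Without S3 and S4 the difference was -0.44 (adjusted p = 0.0824), and the call was also lost when S3, S4, S16 or S17 was left out alone. The same libraries differed in other markers: B cell marker sums were 75.5 and 106 RPKM in S3 and S4 and 28.7 and 29.9 RPKM in S1 and S2. In Ikzf3 KO these sums were nearly all Ighm, at 27.9 to 106 RPKM. The other B cell markers in the sum were low there, Cd74 at 0.485 to 0.776 RPKM and Cd79b at most 0.0796 RPKM. Cd74 was called lower than in Cre only (-2.53 ± 0.52). Tcf7 was at 80.4 and 128 RPKM in S3 and S4 and at 32.9 and 33.3 RPKM in S1 and S2. The part of these differences, and of the lower NK identity sum of S3 and S4, in the Eos result was not tested. The direct comparison of Ikzf1 KO with Ikzf3 KO gave 2.58 ± 0.29 (limma adjusted p = 4.59e-05), called each time a single library was left out; without S3 and S4 it was 1.89 (adjusted p = 1.13e-05).

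DKO cells lay between, with Eos at 4.43, 3.05 and 3.95 RPKM (mean 3.81 ± 0.701). These were above all Cre only and below all Ikzf1 KO libraries. The rise over Cre only was 0.96 ± 0.31 (limma adjusted p = 0.0457), a call close to its threshold that held in 4 of the 15 fits without a single library, those without S1, S2, S3 or S4. DKO exceeded Ikzf3 KO by 2.08 ± 0.31 (limma adjusted p = 0.000354), while the difference of -0.5 ± 0.31 from Ikzf1 KO did not pass (adjusted p = 0.396). Ikzf4 was thus highest in Ikzf1 KO, then DKO, Cre only and Ikzf3 KO, with no overlap between neighbours.

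**Figure D3:**
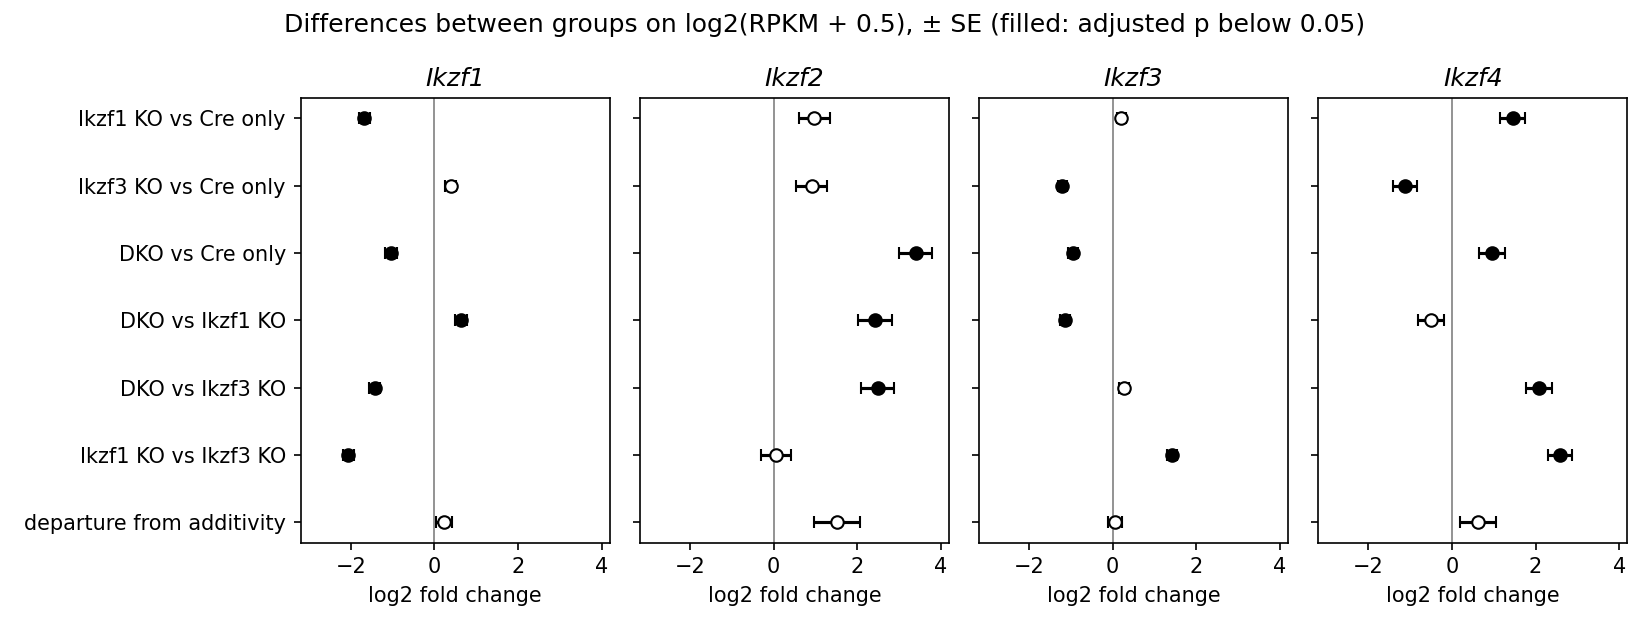
Log2 fold change ± SE (from limma on log2(RPKM + 0.5)) of each member in each comparison of genotypes. The rise of Ikzf2 in DKO over Cre only, 3.4, is the largest difference of a member from Cre only, and Ikzf4 lies at 1.45 in Ikzf1 KO and at -1.12 in Ikzf3 KO.

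Summed over the 4 members, family transcript was 107 ± 4.38 RPKM in Cre only, 76.7 ± 1.45 in Ikzf1 KO, 104 ± 6.61 in Ikzf3 KO and 77.9 ± 4.87 in DKO. Ikzf1 KO and DKO libraries all lay below the lowest Cre only sum of 101 RPKM, and those of Ikzf3 KO overlapped Cre only. The make-up differed more than the sum. Ikzf1 gave 57.7% of the family sum in Cre only, 24.9% in Ikzf1 KO, 78.5% in Ikzf3 KO and 38.6% in DKO. Ikzf3 gave 38.9%, 63.0%, 17.2% and 27.6% in the same order. Ikzf2 gave 1.78% of the sum in Cre only and 28.9% in DKO, where single libraries ran from 20.2% in S5 to 34.9% in S6. In DKO cells the mean of Ikzf2 was 20.4 RPKM above Cre only, while Ikzf1 was lower by 31.6 RPKM and Ikzf3 by 20.2 RPKM. RNA shares say nothing of protein, and residual Ikzf1 and Ikzf3 reads count in these sums whatever they encode.

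**Figure D4:**
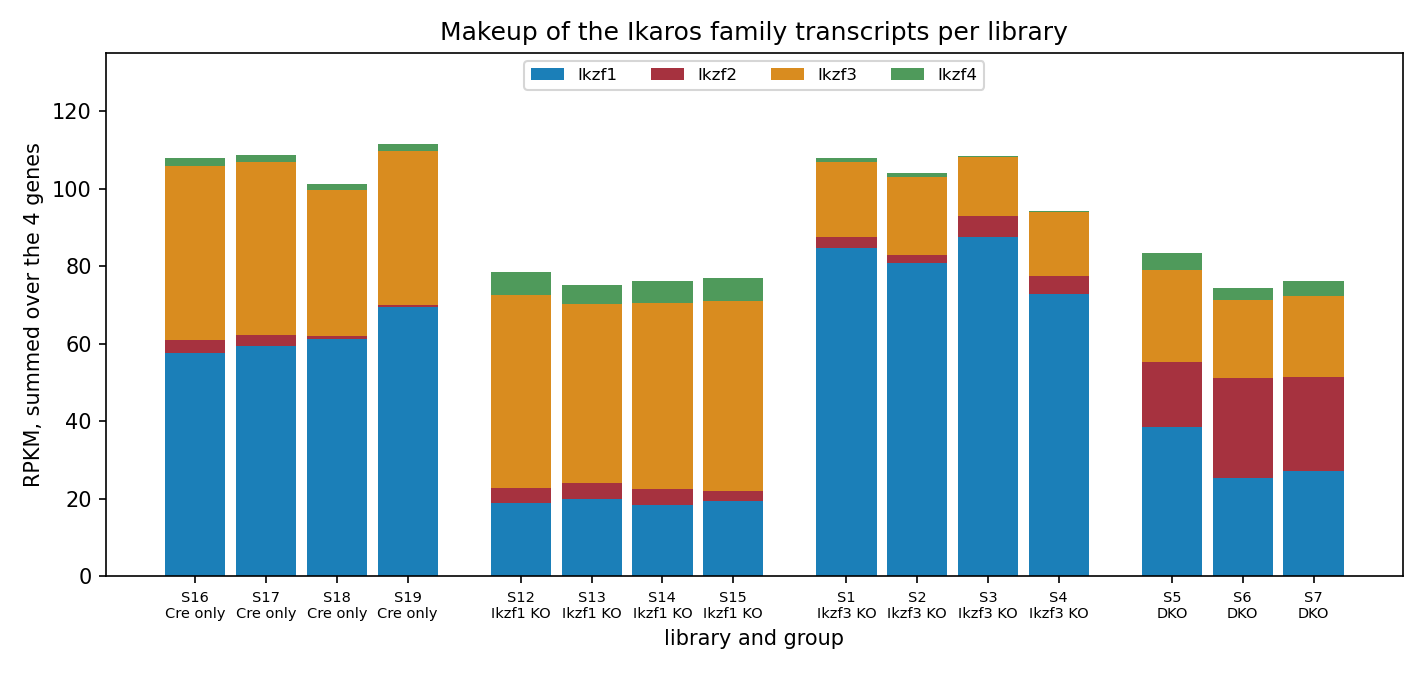
RPKM of the 4 members stacked in each library, with libraries grouped by genotype, on a linear axis from 0. The mean sums are 107 and 104 RPKM in Cre only and Ikzf3 KO and 76.7 and 77.9 RPKM in Ikzf1 KO and DKO. Ikzf2 forms on average 28.9% of the sum in DKO libraries.

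Among 6849 candidate genes, those most like each member over the 15 libraries were found by Pearson's r of log2(RPKM + 0.5), given as a description since libraries share genotype. Ikzf1 was most like Pla2g15 (r = 0.939), Spry4 (0.93) and S100a6 (0.929). Spry4, an inhibitor of receptor tyrosine kinase signalling, averaged 7.01 RPKM in Cre only, 1.76 in Ikzf1 KO, 9.23 in Ikzf3 KO and 1.85 in DKO. The nearest to Ikzf2 were Cd3e (0.929), Gramd3 (0.922) and Kazald1 (0.921). Ikzf3 was most like Slfn8 (0.958), Cmklr1 (0.94) and Abcb1a (0.934); Slfn8, a Schlafen family gene, averaged 18.4 RPKM in Cre only and 0.74 in Ikzf3 KO. For Ikzf4 they were Parp12 (0.959), Cptp (0.955) and Stk35 (0.95). Between members, r was -0.88 for Ikzf1 with Ikzf4 and 0.64 for Ikzf3 with Ikzf4.

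Genes for the partners of Ikaros proteins were described as a list. Of 19 genes tested for corepressor and remodelling subunits, 1 rose and 0 fell in Ikzf1 KO, 1 rose and 3 fell in Ikzf3 KO, and 2 rose and 2 fell in DKO, each against Cre only. These are 5.26%, 21.1% and 21.1% of the list, beside 6.32%, 14.2% and 18.7% of all genes, so nothing is read from them about the list. The medians were 0.06, -0.17 and -0.07, beside -0.01, -0.02 and 0.00 over all genes. Under the alternatives these counts of calls ran from 0 to 6, 1 to 7 and 1 to 9, so they are not firm. Ctbp2, a corepressor, rose by 0.87 ± 0.19 in Ikzf1 KO and 0.85 ± 0.21 in DKO. Chd3, a NuRD helicase, fell by 0.83 ± 0.22 on the log2 scale in Ikzf3 KO. Of 15 genes that degrade or modify Ikaros proteins, among them Crbn, the substrate receptor through which immunomodulatory drugs act, limma called 0 in both single knockouts (1 in Ikzf1 KO and 4 in Ikzf3 KO at an unadjusted p below 0.05). Over all genes 6.32% and 14.2% were called in these comparisons with Cre only. Under the alternatives 0 to 5 of the list were called in Ikzf1 KO, 0 to 3 in Ikzf3 KO and 0 to 7 in DKO. In DKO Ppp1cc, a phosphatase subunit, rose by 0.46 ± 0.12 and Csnk2b, a casein kinase 2 subunit, fell by 0.39 ± 0.11 on the log2 scale. These calls are 13.3% of the list, beside 18.7% of all genes.

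AP-1 genes, which the study's title names as targets of Ikaros and Aiolos, gave 0 calls by limma of 11 tested in Ikzf1 KO against Cre only, with 1 at an unadjusted p below 0.05. The alternatives gave 0 to 5 calls there, and library weights gave the 5. In Ikzf3 KO 1 rose and 2 fell, and in DKO 1 rose and 5 fell. The calls are 0%, 27.3% and 54.5% of the list in Ikzf1 KO, Ikzf3 KO and DKO. All genes gave 6.32%, 14.2% and 18.7%. The medians were -0.29, -0.19 and -0.28, beside -0.01, -0.02 and 0.00 over all genes. Batf3, the AP-1 gene that was higher in DKO (3.32 ± 0.28), passed the filter only through the 3 DKO libraries, with a Cre only mean of 0.191 RPKM, so its rise supports nothing about the list. In DKO Jun fell by 2.54 ± 0.29, Jund by 1.25 ± 0.31 and Fos by 1.18 ± 0.28 on the log2 scale. Fos was at 0.2 to 0.647 RPKM in DKO and 0.14 to 0.93 RPKM in Ikzf3 KO. It passed the filter only through Cre only and Ikzf1 KO, so its falls in DKO and Ikzf3 KO support nothing about the list. The 5 falls in DKO became 3 without S5, 2 without S6 and 1 without S16 and S17; without S5, S6 or S7 Batf3 was no longer tested, which left 10 genes.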

How the data were processed

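RNA of cultured splenic NK cells was sequenced in 15 libraries of 4 genotypes. Per the submitters' processing notes, STAR, featureCounts and limma 3.34.9 were used with build mm10; their settings are not given in the sources used here. The deposited values are RPKM computed by the authors, without counts. Columns carry genotype and a library number; they were placed in the cultured groups because only those have matching sizes. Per the labels, replicates are biological; p-values measure the spread between these samples.

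Reads were recovered from the steps between RPKM values with GENCODE exon lengths: 11291 of 11736 genes (96.2%) were whole within 0.02 read in all libraries, and depth is summed over these. Genes with RPKM of at least 1 in at least 3 libraries (10032) were fitted as log2(RPKM + 0.5) by limma 3.58.1 under R 4.3.3. A single fit over all 15 libraries gave each genotype a mean; it used limma-trend with robust moderation, 11 residual degrees of freedom and 2-sided tests. The fit was tested on simulated data. Python 3.11.15 with pandas 2.3.3 and matplotlib 3.10.9 did the rest.

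Members, 9 gene lists and rules were chosen with earlier results of these data known. The text names the 4 members, up to 4 called genes per list and comparison by adjusted p, and for each member the 3 genes of highest r with a mean RPKM of at least 5 in some group. Alternatives changed the pseudocount, filter, scaling, library weights, groups fitted and libraries kept.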

Additional observations from a re-analysis of the deposited data

How the results depend on the processing

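Of 752 member differences recomputed under alternatives, 705 kept direction and side of the threshold; the cause of each change was not tested unless the setting removes libraries. No paired analysis was possible because the columns carry no replicate number. Helios in DKO against Cre only, the fall of each deleted gene and Ikaros in DKO against Ikzf1 KO were called in all settings. With a pseudocount of 0.1, Eos was not called in Ikzf1 KO (1.65) or DKO (1.11) against Cre only. Library weights, whose estimation stopped before convergence, called 3746 genes in Ikzf1 KO, 2201 in Ikzf3 KO and 3059 in DKO against Cre only (634, 1423 and 1872 otherwise), 2076 in DKO against Ikzf1 KO (750), 3002 between the single knockouts (1775) and 1447 for additivity (657); Helios in Ikzf1 KO (0.78), Ikaros in Ikzf3 KO (0.44), Eos in DKO against Ikzf1 KO (-0.64) and the Helios departure from additivity (2.29) were then called, and the departures of Aiolos (-0.08) and Eos (-0.07) changed sign. Fitting only the groups compared gave 1927, 431, 1700, 664 and 1033 genes for Ikzf1 KO and Ikzf3 KO against Cre only, DKO against Ikzf1 KO, DKO against Ikzf3 KO (2012 otherwise) and the single knockouts; Eos was lost in Ikzf3 KO (-1.12) and called in DKO against Ikzf1 KO (-0.5). Without S3 and S4, 1698 genes were called in Ikzf1 KO and 3642 in DKO against Cre only, 2125 in DKO against Ikzf1 KO, 1107 between the single knockouts and 1005 for additivity; Eos was lost in Ikzf3 KO (-0.44) and called in DKO against Ikzf1 KO (-0.5), the Helios departure was called (2.01), and those of Aiolos (-0.1) and Eos (-0.06) changed sign. Without S16 and S17, 366, 555 and 1083 genes were called in Ikzf1 KO, Ikzf3 KO and DKO against Cre only; Helios was called in Ikzf1 KO (1.71) and Ikzf3 KO (1.65), Eos was lost in Ikzf3 KO (-1.05) and DKO (1.03), and the Aiolos departure was -0.05. Without S18 and S19, 740 genes were called in Ikzf3 KO; Eos was lost in Ikzf1 KO (1.38), Ikzf3 KO (-1.19) and DKO (0.89), and the Helios departure was called (2.26). Leaving out single libraries gave 332 to 822, 819 to 2985 and 976 to 2299 genes for Ikzf1 KO, Ikzf3 KO and DKO against Cre only, 335 to 1122 for DKO against Ikzf1 KO, 1169 to 3080 for DKO against Ikzf3 KO, 869 to 3334 between the single knockouts and 344 to 839 for additivity. In the same fits, Eos ranged from -1.38 to -0.86 in Ikzf3 KO and 0.86 to 1.09 in DKO, Ikaros from 0.36 to 0.45 and Helios from 0.62 to 1.19 in Ikzf3 KO, Helios between the single knockouts from -0.15 to 0.27, and the Aiolos departure from -0.01 to 0.12. Ikzf4 is the member that depth limits most, with as few as 6 reads.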

Other observations

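Ikzf5 (Pegasus), a more distant relative, was at 0.25 to 0.704 RPKM in all libraries and failed the filter. Lists of other cell types were counted beside the members, each against Cre only. NK identity genes gave 0 rises and 2 falls of 16 tested in Ikzf1 KO, and 0 rises and 6 falls in both Ikzf3 KO and DKO, where Gzmb, the cytotoxic protease granzyme B, fell by 2.23 ± 0.62 and Nfil3 by 1.89 ± 0.5 on the log2 scale. These calls are 12.5%, 37.5% and 37.5% of the list in Ikzf1 KO, Ikzf3 KO and DKO. All genes gave 6.32%, 14.2% and 18.7%. The 6 calls of the DKO dropped to 2 without S5, S16 or S17 and to 1 without S16 and S17 together. They became 9 without S3 and S4 (3 rises, 6 falls) and 8 with library weights (2 rises, 6 falls). Zeb2, among the DKO falls, was at most 0.427 RPKM in DKO and 0.761 RPKM in Ikzf3 KO. It passed the filter only through Cre only and Ikzf1 KO, so its fall supports nothing about the list. Markers of group 1 innate lymphoid cells gave 4 rises and 1 fall of 8 in DKO, 62.5% beside 18.7% of all genes. Among the rises was Il7r, the interleukin 7 receptor, up by 2.15 ± 0.43. Il7r passed the filter only through the DKO libraries, with a Cre only mean of 0.567 RPKM, so its rise supports nothing about the list. In Ikzf1 KO 2 rose and 1 fell, and in Ikzf3 KO 0 rose and 1 fell. These are 37.5% and 12.5% of the list, beside 6.32% and 14.2% of all genes.

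Of regulatory T cell markers, 1 of 6 tested rose in DKO (Nrp1, by 3.98 ± 0.27) and 1 fell (Capg, by 1.74 ± 0.23). These are 33.3% of the list, beside 18.7% of all genes. Nrp1 was at 0.0125 to 0.403 RPKM in Cre only and passed the filter only through the knockout groups. Its rise therefore supports nothing about the list. The summed level of these markers was 90.5 to 134 RPKM in DKO and 162 to 228 RPKM in Cre only. Much of the Cre only sum was Capg, with a mean of 123 RPKM there and 37.8 RPKM in DKO. The sum therefore does not stand for the whole list. In the single knockouts 1 rose and 1 fell in Ikzf1 KO, and 2 rose and 0 fell in Ikzf3 KO. Each is 33.3% of the list, beside 6.32% and 14.2% of all genes. Of B cell markers only 3 of 10 were in the table. All 3 rose in DKO, 100% beside 18.7% of all genes. Ighm rose by 2.55 ± 0.41, Cd79b by 1.18 ± 0.28 and Cd74 by 1.95 ± 0.56. Their sums were 177 to 213 RPKM in DKO beside 33.1 to 41.8 RPKM in Cre only. Without S6, or without S18 and S19, 1 was called. Cd79b was below 1 RPKM in every Cre only and Ikzf3 KO library. It passed the filter only through groups where it is higher, so its rise supports nothing about the list. Cd79b rose in Ikzf1 KO and Cd74 fell in Ikzf3 KO. Each is 33.3% of those tested, beside 6.32% and 14.2% of all genes. Of 2 myeloid markers tested, Cd14 rose and Itgam fell in Ikzf1 KO and DKO, and Cd14 rose in Ikzf3 KO. These are 100%, 100% and 50% of those tested, beside 6.32%, 18.7% and 14.2% of all genes. Cd14 was at 0.0778 to 0.614 RPKM in Cre only and passed the filter only through the knockout groups. With so few genes, going opposite ways in Ikzf1 KO and DKO, nothing is read about myeloid cells. The part of any of these in the values of Ikzf2 or Ikzf4 was not tested.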
